A study of Rattus norvegicus with 12 samples.

Results

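Transcripts of cholesterol synthesis and sterol sensing were followed in the embryonic rat forebrain through 8 genes chosen by name, Insig1, Srebf2, Hmgcs1, Idi1, Fdps, Sqle, Lss and Dhcr7. The platform annotation gave a probe set with exactly 1 gene symbol for 7 of the 8, among 14506 genes measured in all, and the probe set with the highest mean was used for each gene. Hmgcs1, the synthase that starts the mevalonate pathway, had no such probe set and was not analysed here. The tissue was the ganglionic eminences, medial and lateral together, of 12 rat embryos at embryonic day 14. The eminences are the ventral forebrain zones that form the striatum and many interneurons. In 6 embryos the BACHD transgene was homozygous, a construct for full-length human huntingtin carrying 96 CAG repeats, and 6 embryos were wild type. The embryos came from 3 dams of the transgenic line, dissected on 1 day, and each array read the RNA of 1 embryo. The labels do not say which dam an embryo came from, its sex, or which promoter drives the transgene. Embryos of 1 dam may resemble each other, and p-values measure only the spread between these embryos. The study's stated aim was to look for early changes of transcription in transgenic embryos.

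The brain makes most of its own cholesterol, because the blood-brain barrier holds back lipoproteins, and growing neural cells need it for new membrane. When sterols in the endoplasmic reticulum run low, the factor SREBP-2, encoded by Srebf2, is escorted by Scap to the Golgi, cut by proteases and released to raise transcription of the synthesis enzymes. When sterols are plentiful, Insig proteins hold Scap and SREBP-2 back, and Insig1 is itself a target of SREBP, so that its transcript is a sensitive readout of the pathway. Sterol-regulated promoters commonly pair a sterol response element or an E-box with sites for NF-Y and Sp1.

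The proximal promoters of the members that the results turn on are shown because the comparison asks whether genes under a common regulator vary together. Each window runs from 250 bases before to 50 bases after the annotated start, in RefSeq's rat assembly GRCr8, read 5′ to 3′ along the gene's own strand, and 7 of the 8 genes, all but Sqle, had a window. Capitals mark CCAAT (the NF-Y box, on either strand, so ATTGG too), TCACCCCA (8 bases of a sterol response element) and CACGTG (an E-box). Insig1 lies on the minus strand at chr4:8057720-8058019, Srebf2 on the plus strand at chr7:115543057-115543356, Idi1 on the minus strand at chr17:66547475-66547774, Fdps on the minus strand at chr2:176804767-176805066 and Dhcr7 on the plus strand at chr1:208444184-208444483.
Insig1: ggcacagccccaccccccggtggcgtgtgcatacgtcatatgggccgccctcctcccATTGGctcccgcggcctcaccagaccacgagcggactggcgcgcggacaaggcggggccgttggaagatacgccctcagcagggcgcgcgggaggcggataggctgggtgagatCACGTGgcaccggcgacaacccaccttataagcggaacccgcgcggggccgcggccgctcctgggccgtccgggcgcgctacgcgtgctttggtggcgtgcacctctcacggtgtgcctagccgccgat
Srebf2: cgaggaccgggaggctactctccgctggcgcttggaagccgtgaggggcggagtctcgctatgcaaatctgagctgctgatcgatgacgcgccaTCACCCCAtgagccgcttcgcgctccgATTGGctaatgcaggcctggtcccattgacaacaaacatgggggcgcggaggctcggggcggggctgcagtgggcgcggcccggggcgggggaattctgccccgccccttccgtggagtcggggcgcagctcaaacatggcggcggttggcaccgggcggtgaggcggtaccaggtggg
Idi1: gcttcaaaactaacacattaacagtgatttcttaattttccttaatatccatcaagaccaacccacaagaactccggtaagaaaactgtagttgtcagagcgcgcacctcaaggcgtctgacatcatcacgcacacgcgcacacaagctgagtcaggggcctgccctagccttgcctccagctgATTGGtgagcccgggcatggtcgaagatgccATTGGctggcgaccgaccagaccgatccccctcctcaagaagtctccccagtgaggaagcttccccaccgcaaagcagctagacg
Fdps: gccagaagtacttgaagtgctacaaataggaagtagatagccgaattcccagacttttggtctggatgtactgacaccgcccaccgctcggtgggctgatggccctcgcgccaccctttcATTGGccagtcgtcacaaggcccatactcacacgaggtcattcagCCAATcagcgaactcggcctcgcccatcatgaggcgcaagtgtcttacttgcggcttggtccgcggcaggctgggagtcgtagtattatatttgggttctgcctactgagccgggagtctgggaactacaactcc
Dhcr7: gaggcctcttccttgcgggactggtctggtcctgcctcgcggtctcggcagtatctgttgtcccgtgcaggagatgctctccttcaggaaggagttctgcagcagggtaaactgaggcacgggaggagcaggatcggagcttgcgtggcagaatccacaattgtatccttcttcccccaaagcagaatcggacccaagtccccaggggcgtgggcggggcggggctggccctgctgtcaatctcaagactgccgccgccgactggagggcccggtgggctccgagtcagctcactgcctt

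The NF-Y box and GGGCGG were each held by most of these windows. CCAAT stood on one strand or the other in 6 of the 7 windows, the unmeasured Hmgcs1 included, against 37.5% of all 33469 rat promoter windows of that length, and Dhcr7 was the member without it. Idi1 held it 2 times, at -66 to -62 and -35 to -31 from the start, and Fdps 2 times, at -130 to -126 and -85 to -81. GGGCGG, a GC box of the kind Sp1 binds, was also in 6 of 7 windows, again with Hmgcs1, against 33.1% of all windows, and Idi1 was the member without it. The sterol response element cores TCACNCCAC and CACCCCAC and the E-box form TCACGTGA were searched on both strands and were in none of the 7 windows (1.12%, 2.7% and 0.777% of all windows). CACCCCAC is contained in some matches of TCACNCCAC, and TCACGTGA contains CACGTG. The motifs TCACCCCA and CACGTG were chosen after the windows had been read. TCACCCCA was in Srebf2 alone of the 7, at -156 to -149 (1.37% of all windows), and CACGTG was in Insig1 alone, at -79 to -74 (6.42% of all windows).

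Array intensities were log2 values with array medians from 7.69 to 7.76 in homozygous and from 7.67 to 7.71 in wild-type embryos. Wild type 1 and wild type 2 stood apart from the other embryos in several of these genes, as described below, and results that rest on them are given with and without them. The probe set for huntingtin, the gene the transgene adds to, was 1.23-fold higher in homozygous embryos (adjusted p = 0.0408 in limma) with no overlap of the groups, at 10.16 to 10.40 in homozygous and 9.77 to 10.07 in wild-type embryos. Whether rat probes read the human transcript was not analysed. Of 12 genes that mark the eminences 9 were measured, and none of the 9 passed the test for a difference. Their mean level was 10.89 to 11.03 in homozygous and 10.87 to 11.01 in wild-type embryos. The groups did not overlap in 1 of the 9, Nkx2-1, which was higher in homozygous embryos, beside 2.20% of all genes in either direction.

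None of the 7 genes measured of 8 passed the test across the whole array (limma, Benjamini-Hochberg adjusted over all 29214 probe sets, threshold 0.05), and the nearest was Insig1, with lower values in homozygous embryos. Over all 14506 genes 0.469% passed, that is 0.269% on the lower side and 0.200% on the higher side in homozygous embryos. At an unadjusted p under 0.05 there were 2 of the 7, Insig1 and Idi1, both lower in homozygous embryos, beside 5.93% of all genes on that side and 9.18% on the other. The median difference of the 7, homozygous minus wild type, was -0.03, and that of all genes was 0.02 (log2). The plot of values by embryo shows each gene on an axis of the same span.

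**Figure D1:**
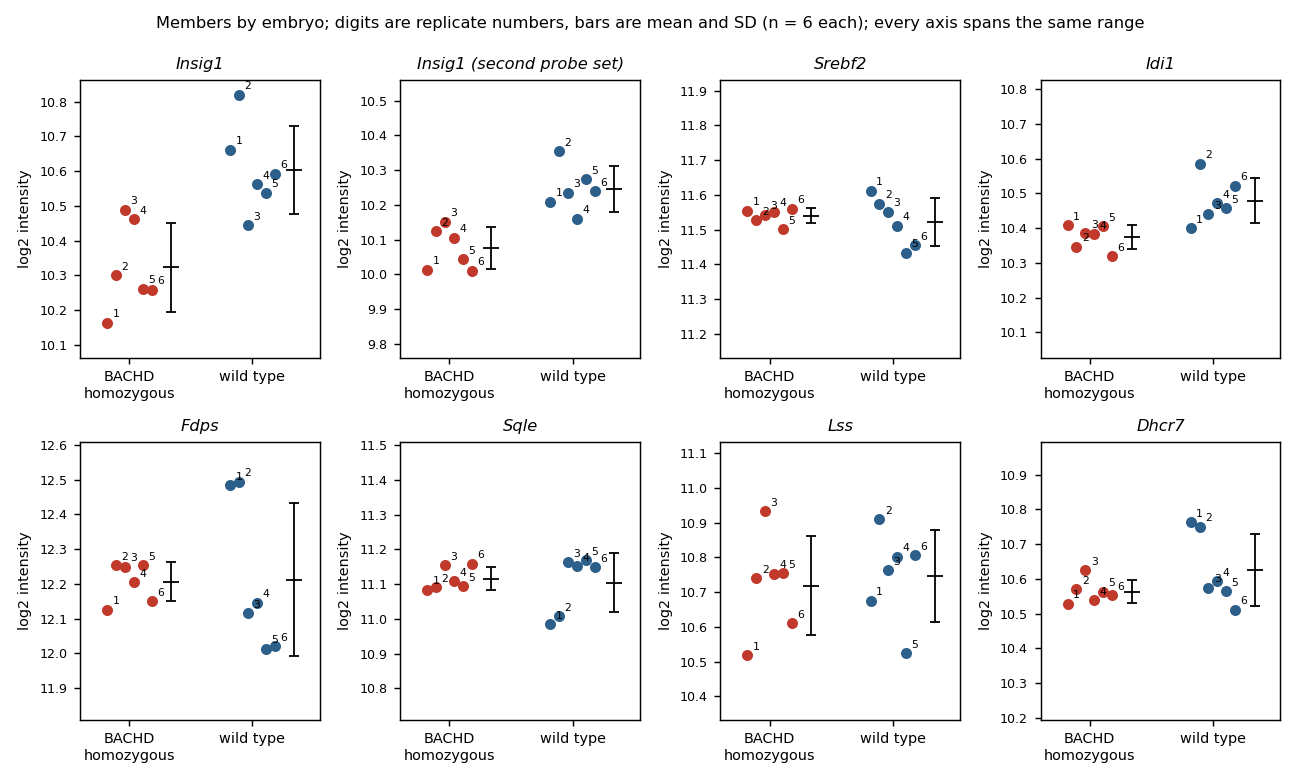
Log2 intensity of each measured gene in every embryo (points, with replicate numbers), BACHD homozygous left and wild type right, with the mean and SD of 6 embryos beside them. Insig1 was lower in homozygous embryos on both of its probe sets, and Fdps and Dhcr7 were high and Sqle low in wild type 1 and 2. The genotypes overlapped in every panel but that of the second Insig1 probe set.

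Insig1, the sterol-dependent anchor of Scap, had log2 intensities of 10.16 at the lowest, 10.28 at the median and 10.49 at the highest in homozygous embryos, against 10.45, 10.58 and 10.82 in wild-type embryos. The groups overlapped only through homozygous 3 and 4 at 10.49 and 10.46, above wild type 3 at 10.45, and 4 of 6 homozygous embryos lay below every wild-type embryo. The difference was -0.28 ± 0.065 (log2, SE, n = 6 per group), or 17.7% lower, with a 95% confidence interval from -0.42 to -0.14. The adjusted p was 0.0812 in limma. The exact permutation p for this gene alone was 0.00649 (2-sided), in a table where 15.6% of all genes had an exact permutation p under 0.05.

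A second, dimmer probe set for Insig1 gave the same direction and separated the genotypes. Its values were 10.01, 10.07 and 10.15 (lowest, median, highest) in homozygous embryos, against 10.16, 10.24 and 10.35 in wild-type embryos. All 6 homozygous values lay below all 6 wild-type values, which 0.698% of all probe sets showed in this direction. The difference was -0.17 ± 0.037 (adjusted p = 0.0641 in limma), smaller than on the brighter probe set, and the exact permutation p was 0.00216, the smallest that 6 against 6 can give. Both probe sets are assigned to the same gene and read the same RNA, so they are not independent samples.

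The call for Insig1 turned on the scaling and on 1 array. With arrays centred on their medians the difference was -0.32 with an adjusted p of 0.0339, and without wild type 3 it was -0.31 with an adjusted p of 0.0484. In the other 19 of 21 alternatives it did not pass, with adjusted p up to 0.170, and in all 21 it was lower in homozygous embryos. Without wild type 1 and 2 together it was -0.21 (adjusted p = 0.0885).

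Markers of cell types had differences of both signs, and 2 of them passed the test, both lower in homozygous embryos. Of all 14506 genes 5597 were below 0 and 0.269% were called lower. At an unadjusted p under 0.05 in limma 5.93% were lower and 9.18% higher, and in 2.20% the groups did not overlap. These shares are the background for the counts that follow. None of 7 pallial markers passed and 6 were below 0, with a median difference of -0.11. At an unadjusted p under 0.05, 3 of the 7 were lower and 0 higher. The 3 were Neurod6 at -0.36 ± 0.105, Slc17a7 at -0.25 ± 0.083 and Neurod2 at -0.25 ± 0.095. The mean level of the 7 was 9.35 to 9.52 in homozygous and 9.38 to 9.76 in wild-type embryos. Emx1, Neurog2, Eomes and Tbr1 were not measured. None of 3 erythroid markers passed. Their mean was 10.50 to 10.70 in homozygous and 10.61 to 11.18 in wild-type embryos, with Hbb, a beta globin gene, at -0.49 ± 0.147 and Alas2 and Hbe1 at -0.04 and -0.01. Of 10 radial glia markers 6 were below 0 and Id4 was called lower (-0.20 ± 0.035, adjusted p = 0.0303 in limma). At an unadjusted p under 0.05, 5 of the 10 were lower and 1 was higher, Hes5, at 0.15 ± 0.042. Among the lower were Fabp7 at -0.41 ± 0.128 and Ptn at -0.16 ± 0.043, neither called. The groups did not overlap in 2 of the 10, Id4 and Ptn. The mean level of the 10 was 10.93 to 11.03 in homozygous and 11.02 to 11.14 in wild-type embryos. Of 10 markers of postmitotic neurons 7 were below 0 and Nefl was called lower (-0.42 ± 0.065, adjusted p = 0.0273 in limma). At an unadjusted p under 0.05, 3 of the 10 were lower and 1 was higher, Map2, at 0.09 ± 0.026. The other lower genes were Nefm at -0.21 ± 0.045 and Gap43 at -0.19 ± 0.062, neither called. The groups did not overlap in 2 of the 10, Nefl and Nefm. The mean level of the 10 was 11.57 to 11.74 in homozygous and 11.68 to 11.75 in wild-type embryos. Choroid plexus and roof plate had 7 of 8 markers above 0 and none called, beside 8909 of all 14506 genes above 0. Of the 8, 2 were higher and 0 lower at an unadjusted p under 0.05. Their mean level, below the array medians, was 6.66 to 6.87 in homozygous and 6.68 to 6.78 in wild-type embryos. Endothelial markers were above 0 in 5 of 7, none called, with a median difference of 0.0079 beside 0.02 over all genes. Of the 7, 2 were higher and 0 lower at an unadjusted p under 0.05. Cdh5 stood at 0.15 ± 0.033 (adjusted p = 0.0641 in limma) with no overlap of the groups, Esam at -0.11 ± 0.069 and Tek at -0.09 ± 0.051. The 9 markers of the eminences split into 5 above and 4 below 0. Nkx2-1 stood at 0.16 ± 0.040 (adjusted p = 0.108 in limma) with no overlap of the groups, and Dlx5 at -0.18 ± 0.080. Of 6 microglia, 5 meninges and 4 oligodendrocyte precursor markers none passed, with 3, 4 and 2 above 0. In the last list Olig1 stood at -0.22 ± 0.068 and Cspg4 at 0.11 ± 0.041. The part of these cell markers in the Insig1 result was not tested. In whole tissue, fewer cells of a kind and less RNA per cell cannot be told apart.

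The other sensing genes did not pass the test, and their differences lay between -0.11 and 0.02. Srebf2, the gene for SREBP-2, had 11.50, 11.55 and 11.56 (lowest, median, highest) in homozygous embryos and 11.43, 11.53 and 11.61 in wild-type embryos, with the homozygous range inside the wild-type range. Its difference was 0.02 ± 0.030 (95% confidence interval -0.05 to 0.08, adjusted p = 0.815), and it was -0.02 with arrays centred on their medians. Scap, the escort protein, stood at -0.0045 ± 0.0268 and Insig2, the second Insig gene, at -0.01 ± 0.047 (log2 difference, SE). Mbtps2, the second of the proteases that cut SREBP, was at -0.11 ± 0.048 and Rnf145, a ubiquitin ligase of the endoplasmic reticulum, at -0.09 ± 0.031. Neither passed (adjusted p = 0.296 and 0.180 in limma). Of 8 sensing genes measured of 11 listed, Insig1 and Srebf2 included, 7 were below 0, against 5597 of all 14506 genes, and none passed. Srebf1 shared its probe set with another gene and was not used here.

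Idi1, the isomerase that supplies the reactive isoprenoid unit, had the second smallest unadjusted p of the members. Its values were 10.32, 10.38 and 10.41 in homozygous embryos, against 10.40, 10.46 and 10.58 in wild-type embryos. All 6 homozygous embryos lay below the wild-type mean, and the groups overlapped only through wild type 1 at 10.40. The difference was -0.10 ± 0.033 (95% confidence interval -0.17 to -0.03, adjusted p = 0.166, exact permutation p = 0.00649). It kept its direction in all 21 alternatives and passed in none, with adjusted p from 0.0650 to 0.292. RefSeq names 1 pseudogene of Idi1, and whether the probes read it was not analysed.

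Fdps, which joins isoprenoids into farnesyl diphosphate at the branch to sterols, dolichol and prenylated proteins, had close means in both genotypes and a wide spread in wild type. Its values were 12.13, 12.23 and 12.25 in homozygous embryos, against 12.01, 12.13 and 12.49 in wild-type embryos. Wild type 1 and 2, at 12.48 and 12.49, lay above all other embryos, and among the other 10 embryos only homozygous 1, at 12.13, lay below a wild-type embryo. The difference was -0.01 ± 0.080 over all embryos (95% confidence interval -0.18 to 0.16) and 0.13 ± 0.035 without wild type 1 and 2 (adjusted p = 0.975 and 0.0719 in limma), the second a choice made after seeing the data. RefSeq names 5 pseudogenes of Fdps, and near-identical copies could share its probes, so its value is uncertain.

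In the squalene steps neither gene differed beyond its spread. Sqle, the epoxidase that is a rate-limiting enzyme of the sterol branch, had 11.08, 11.10 and 11.16 in homozygous embryos, against 10.98, 11.15 and 11.17 in wild-type embryos. Wild type 1 and 2 were its lowest embryos, at 10.98 and 11.01, and the other 4 wild-type embryos lay between 11.15 and 11.17. Its difference was 0.01 ± 0.036 (95% confidence interval -0.07 to 0.09, adjusted p = 0.902), and -0.04 ± 0.023 without wild type 1 and 2 (adjusted p = 0.397). Lss, the cyclase that folds squalene epoxide into lanosterol, had 10.52, 10.75 and 10.93 in homozygous embryos, against 10.52, 10.78 and 10.91 in wild-type embryos. Its groups covered the same range, and its difference was -0.03 ± 0.070 (95% confidence interval -0.18 to 0.12, adjusted p = 0.862).

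Dhcr7, the reductase of the last step to cholesterol, had 10.53, 10.56 and 10.62 in homozygous embryos, against 10.51, 10.58 and 10.76 in wild-type embryos. Wild type 1 and 2 were again its highest, at 10.76 and 10.75, and the other embryos of both genotypes lay between 10.51 and 10.62. Its difference of -0.06 ± 0.043 (adjusted p = 0.499) was 0.0023 without wild type 1 and 2. For Fdps, Sqle and Dhcr7 alike the homozygous SD (0.0564, 0.0329 and 0.0336) was below the wild-type SD (0.220, 0.0845 and 0.104), with wild type 1 and 2 at the end of each wild-type range. The homozygous SD was also lower for Idi1 (0.0347 against 0.0652) and Srebf2 (0.0219 against 0.0693). Srebf2 too was highest in wild type 1 and 2. Insig1 (0.127 against 0.128) and Lss (0.142 against 0.133) had SDs close in both genotypes. The share of all genes with a lower homozygous SD was not computed, and a difference in spread between genotypes was not tested.

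The wider pathway lists gave no call. Of 21 genes listed for cholesterol synthesis, 18 were measured, among them the members Idi1, Fdps, Sqle, Lss and Dhcr7. None passed, with 9 above and 9 below 0 and a median difference of -0.0027, beside 0.02 over all genes. In this list 3 were lower at an unadjusted p under 0.05 in limma, Idi1 included, and 0 higher, beside 5.93% and 9.18% of all genes. The smallest unadjusted p outside the members belonged to Cyp51, the lanosterol demethylase, at -0.08 ± 0.030, and Lbr, a sterol reductase of the nuclear envelope, at -0.07 ± 0.030 (adjusted p = 0.259 and 0.279 in limma). Among uptake and transport genes Npc1, which moves cholesterol out of lysosomes, stood at 0.11 ± 0.035 and Vldlr at -0.11 ± 0.048, and none of 5 passed. None of 9 genes of oxysterols and their receptor LXR passed, with Soat1, which esterifies cholesterol, at -0.11 ± 0.044 and Mylip, a ubiquitin ligase that LXR induces, at 0.10 ± 0.046. On the branches that leave the isoprenoid pathway none of 5 passed, Fdps included, with Dhdds, of dolichol synthesis, at 0.13 ± 0.038. Next by unadjusted p was Ggps1, of geranylgeranyl diphosphate synthesis, at -0.07 ± 0.062, with the same p as Pdss2, of ubiquinone synthesis, at 0.04 ± 0.035.

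Among the 48 pathway genes measured outside the members, the groups did not overlap in 2, both fatty acid genes that SREBP-1 controls. Elovl5, an elongase of polyunsaturated fatty acids, was at 11.36 to 11.44 in homozygous and 11.46 to 11.58 in wild-type embryos, a difference of -0.11 ± 0.026 (adjusted p = 0.0883 in limma). Fads1, a desaturase of the same fatty acids, was at 12.10 to 12.17 in homozygous and 12.04 to 12.10 in wild-type embryos, a difference of 0.07 ± 0.021 (adjusted p = 0.175), with the lowest homozygous and the highest wild-type value almost equal. The pair thus pointed in opposite directions. Elovl5 passed under median centring and under quantile normalization. In all, 48 genes of these lists outside the members were measured of 58 listed. None passed, 5 had an unadjusted p under 0.05 on the higher side and 8 on the lower, and their median difference was -0.0046. Over all genes 2.20% did not overlap between the genotypes.

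**Figure D2:**
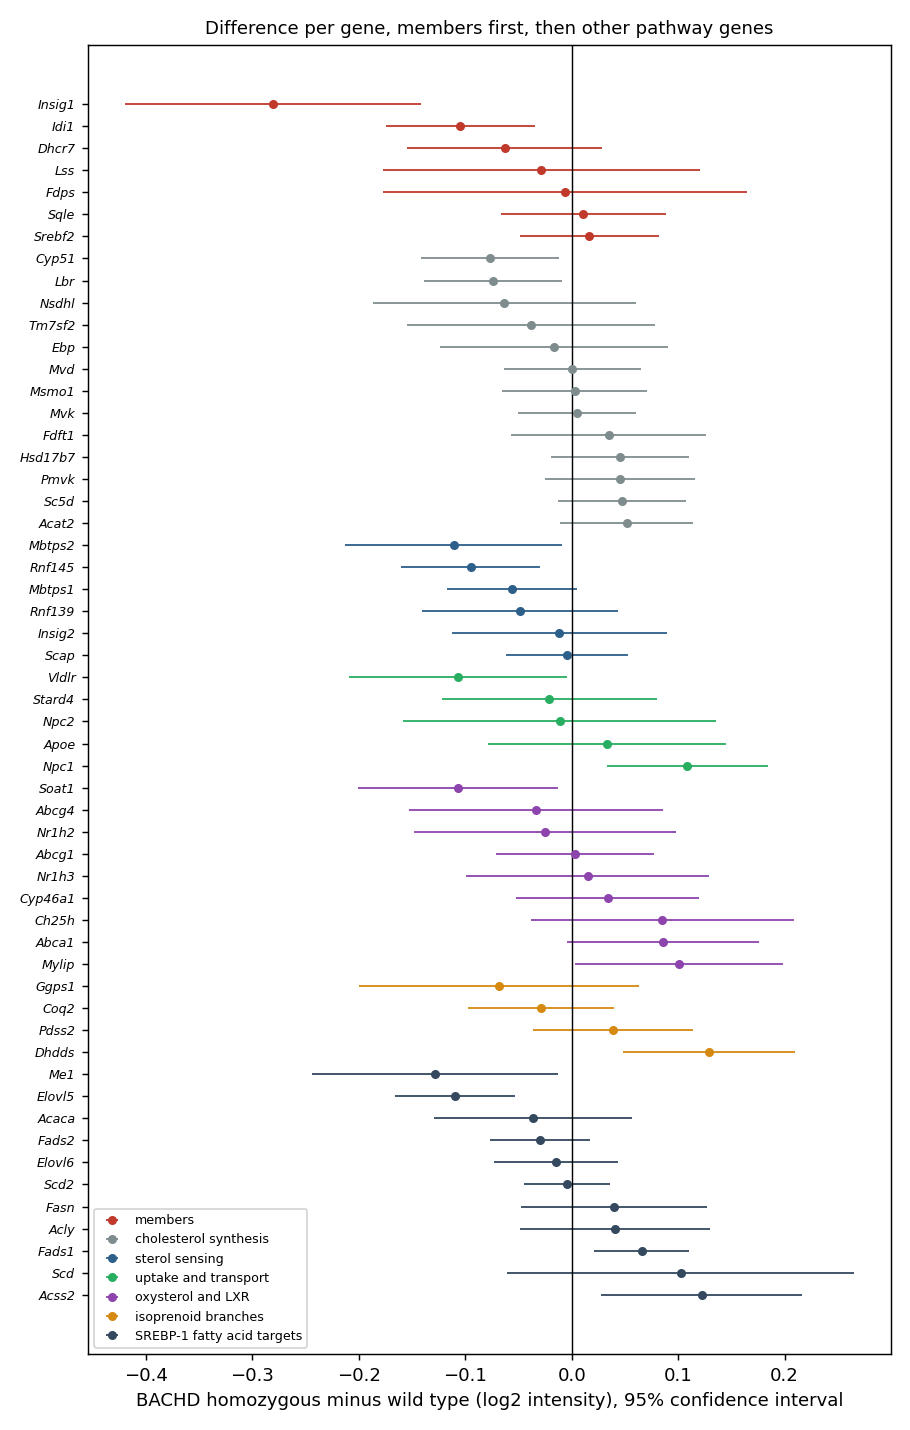
Difference of BACHD homozygous minus wild type in log2 intensity (points) with its 95% confidence interval (lines) for the 7 members and then the 48 other measured pathway genes, in colours by list. Insig1, at -0.28, lies farthest from 0, and the others lie between -0.13 and 0.13.

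Whether the sterol genes varied together was asked of the embryos after each value had been set against its genotype mean, so that a genotype difference could not make the correlation. Of the 21 pairs among the 7 genes, 1 passed (permutation of embryos within genotype, 2-sided, Benjamini-Hochberg adjusted over the 21 pairs). That pair was Fdps and Dhcr7, with Pearson's r = 0.96 (permutation p = 5.3e-04, adjusted p = 0.0111) and Spearman's rho = 0.96 (permutation p = 3.6e-04, adjusted p = 0.00756) over 12 embryos. Both genes were highest in wild type 1 and 2, which lay 0.27 and 0.28 above the wild-type mean for Fdps and 0.14 and 0.12 above it for Dhcr7.

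The Fdps and Dhcr7 relation was weaker without those embryos. They are also the 2 farthest from the median of Fdps, and without them r was 0.70 (permutation p = 0.0296, adjusted p = 0.311, n = 10). Within genotypes r was 0.66 in homozygous and 0.98 in wild-type embryos (exact permutation p = 0.15 and 0.00556, adjusted over the 21 pairs 0.619 and 0.117, n = 6 each). Among all 14505 other genes Dhcr7 ranked 42nd by r with Fdps, and Fdps ranked 12th by r with Dhcr7. Over all pairs of the 14506 genes, 0.0145% had an absolute r at least as high over the 12 embryos. The cut was this pair's own r, the highest of the 21, so a small share is no background for it. The share at r = 0.70 without wild type 1 and 2 was not computed.

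Fdps, Sqle and Dhcr7 had more very strong correlations than the other members. An absolute r of 0.9 or more was reached with Fdps by 440 other genes (3.03%), with Sqle by 285 (1.96%) and with Dhcr7 by 284 (1.96%). The numbers were 12 with Srebf2 (0.0827%), 6 with Insig1, 2 with Idi1 and 1 with Lss. The share of all pairs of genes at this r was not computed. Srebf2, like Fdps and Dhcr7, was highest in wild type 1 and 2. The same 2 arrays had the most negative difference between the mean of dim and the mean of bright probe sets (below and above the median level), -3.88 each, against -3.855 to -3.753 in the homozygous arrays and -3.83 to -3.77 in the other wild-type arrays. With this array measure removed from each gene together with the genotype mean, the Fdps and Dhcr7 correlation was 0.93 (permutation p = 1.8e-04, adjusted p = 0.00378).

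Over all embryos Sqle had negative correlations with Fdps and Dhcr7. Its r with Fdps was -0.88 and with Dhcr7 -0.78, with permutation p of 0.0301 and 0.0553 and adjusted p of 0.126 and 0.165 over 12 embryos (Spearman's rho -0.81 and -0.75, permutation p = 0.032 and 0.0514). Wild type 1 and 2 were low in Sqle and high in both partners, and without them r was -0.07 and 0.46. With the array measure of dim and bright probe sets removed r was -0.82 and -0.64 (permutation p = 0.00285 and 0.039, adjusted 0.0299 and 0.102). Srebf2 and Sqle had r = -0.66 (permutation p = 0.116, rho = -0.50 with permutation p = 0.222), and 0.18 without those 2 embryos.

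The correlations of Insig1 with Lss, Fdps and Dhcr7 did not pass the adjustment. Its r was 0.67 with Lss, 0.63 with Fdps and 0.63 with Dhcr7, with permutation p of 0.0269, 0.0173 and 0.0226 and an adjusted p of 0.126 for each (Spearman's rho 0.74, 0.64 and 0.62, permutation p = 0.012, 0.0256 and 0.0361, n = 12). With Lss it stayed at 0.66 without wild type 1 and 2, and with Fdps and Dhcr7 it was then 0.28 and 0.32. On the second Insig1 probe set r over 12 embryos was 0.53 with Lss, 0.35 with Fdps and 0.37 with Dhcr7, and the 2 probe sets had r = 0.71 with each other. Without the 2 embryos farthest from the median of Insig1, which were wild type 2 and homozygous 1, the 3 values were 0.40, 0.38 and 0.42. Within homozygous embryos Insig1 and Lss had r = 0.85 and within wild-type embryos 0.48 (exact permutation p = 0.025 and 0.335, adjusted 0.263 and 0.586, n = 6 each). In the same homozygous embryos Lss had r = 0.85 with Fdps and 0.85 with Dhcr7 (exact permutation p = 0.0222 and 0.0375, adjusted 0.263 for both). Homozygous 3 was the highest and homozygous 1 the lowest of the homozygous embryos in both Insig1 and Lss. With the array measure of dim and bright probe sets removed, 6 pairs passed: Insig1 with Fdps, Lss and Dhcr7, Fdps with Lss, Dhcr7 and, negatively, Sqle. The share of all pairs of genes with correlations this strong was not computed under that setting. The count of 6 therefore has no background and cannot be read as particular to sterol genes.

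**Figure D3:**
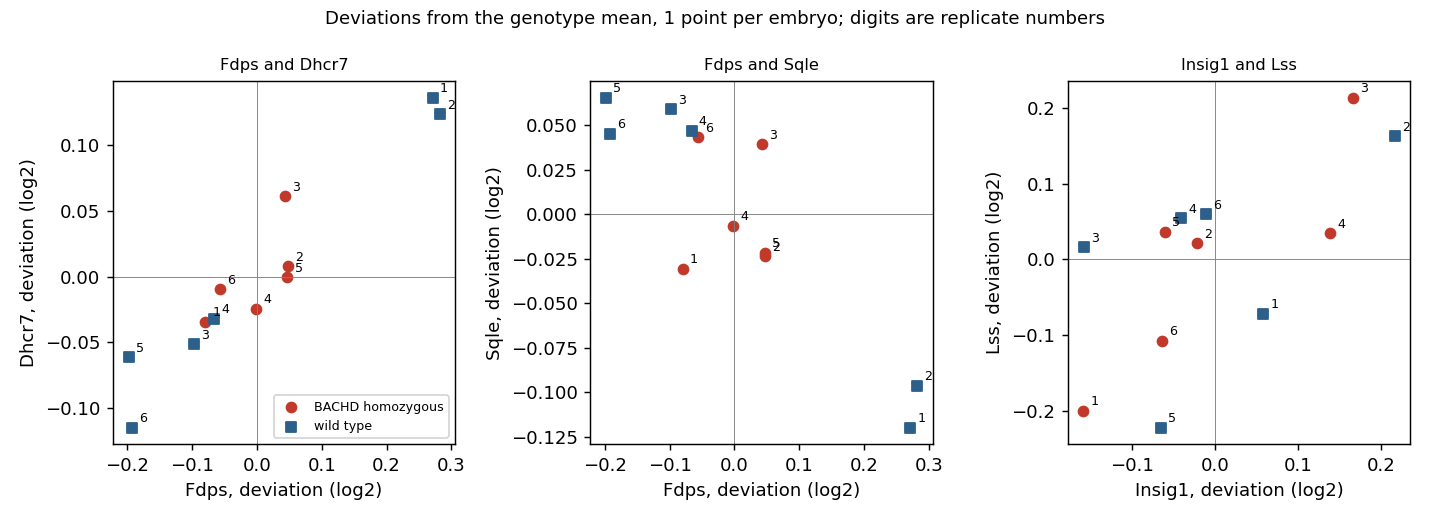
Deviations from the genotype mean in log2 intensity for Fdps and Dhcr7, Fdps and Sqle, and Insig1 and Lss, 1 point per embryo with its replicate number (circles BACHD homozygous, squares wild type). Wild type 1 and 2 sit at the far right of the first panels, above the others for Dhcr7 and below them for Sqle, while for Insig1 and Lss homozygous 1 and 3 and wild type 2 lie near the ends of the cloud.

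Idi1, the member nearest to Insig1 in its genotype difference, had low correlations with the rest of the genes. Its r ranged from -0.18 with Srebf2 to 0.44 with Lss, and its r with Insig1 was 0.38 (permutation p = 0.25, rho = 0.28 with permutation p = 0.404), or 0.14 without the 2 embryos farthest from the median of Insig1. Srebf2, whose product acts on all the others, had r = 0.30 with Insig1 (permutation p = 0.393, rho = 0.17 with permutation p = 0.605). It had r = 0.76 with Fdps and 0.75 with Dhcr7 (permutation p = 0.0628 and 0.0624, adjusted 0.165 for both), with rho = 0.47 and 0.52 (permutation p = 0.241 and 0.194). Without wild type 1 and 2 these r were 0.26 and 0.22. Within genotypes r with Fdps was -0.75 in homozygous and 0.88 in wild-type embryos (exact permutation p = 0.075 and 0.0319, adjusted 0.394 and 0.15), with rho = -0.89 and 0.89 (exact permutation p = 0.0333 for both). With Dhcr7 it was -0.23 in homozygous and 0.85 in wild-type embryos (exact permutation p = 0.628 and 0.0486, adjusted 0.879 and 0.15). The difference between genotypes was not tested. Without wild type 5 and 6, the embryos farthest from the median of Srebf2, r with Dhcr7 was 0.58. Over all 21 pairs the median absolute r was 0.42, against 0.282 over all pairs of genes, and 14 of the 21 were above 0, against 52.3% of all pairs. Without wild type 1 and 2 the median was 0.275, against 0.28 over all pairs of genes, and 15 of the 21 were above 0, against 54.1% of all pairs.

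**Figure D4:**
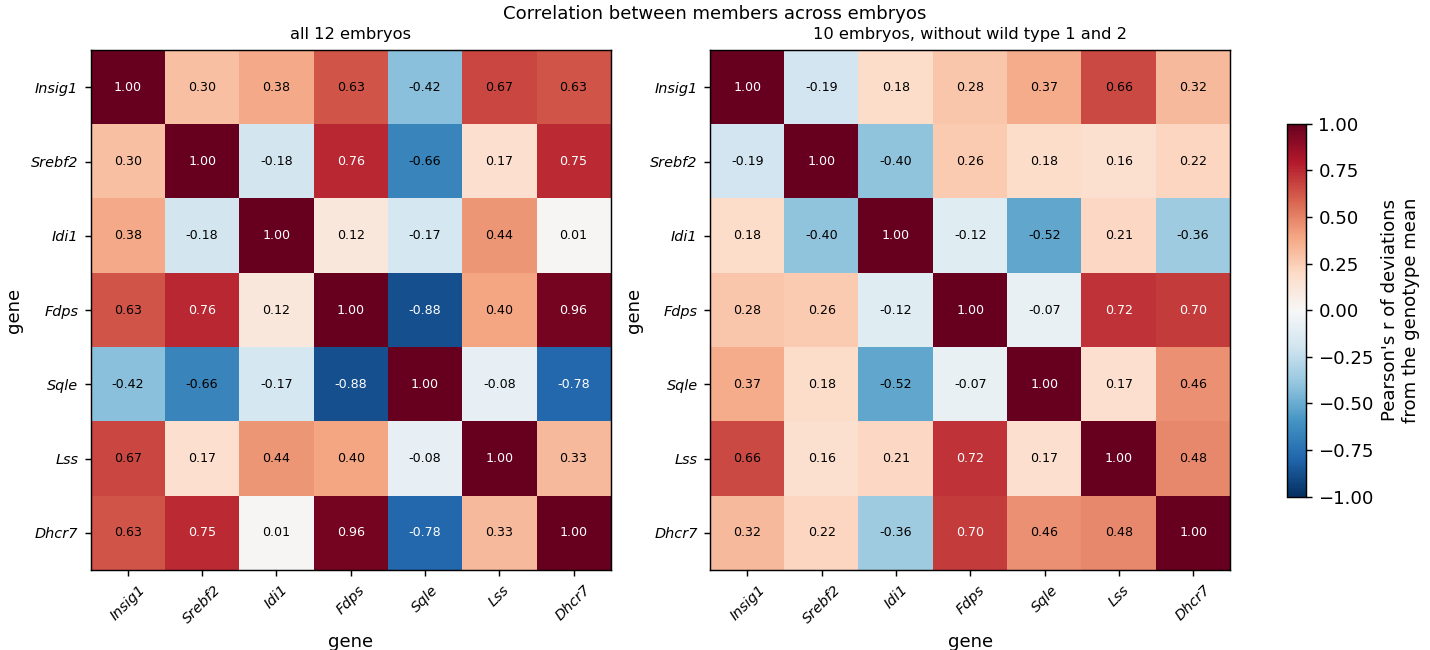
Pearson's r between each pair of the 7 genes, computed on deviations from the genotype mean in log2 intensity, over all 12 embryos (left) and over 10 embryos without wild type 1 and 2 (right). The strong values that join Fdps, Dhcr7, Srebf2 and, with opposite sign, Sqle on the left are weaker on the right, where Fdps with Lss, at 0.72, is the highest.

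The genes whose pattern over the 12 embryos was most like that of Insig1 were not sterol genes of the lists. By Pearson's r of deviations over 14505 genes they were Prdx3 (0.97), Snap47 (0.95), Nkiras2 (0.92), Notch4 (0.91) and Spata33 (0.90), and the most opposite were Traf3ip1 (-0.89), Gpr63 (-0.89) and Jade1 (-0.88). Lss, the highest member, ranked 655th, Fdps 958th and Dhcr7 974th.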

How the data were processed

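Affymetrix gene arrays read the RNA of 12 rat embryos, 6 BACHD homozygous and 6 wild type, at 1 array per embryo. The authors deposited log2 intensities, 1 value per probe set and array. Partek 6.4 and RMA appear in the submitters' processing notes with neither order nor settings, and further upstream steps have no stated source. Normalization of this kind makes arrays alike, and short probes compress large differences. The number of arrays limits precision. Of 29214 probe sets, 15310 had 1 gene symbol, 323 several and 13581 none in the platform annotation.

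Genotype was the only factor in a limma 3.58.1 fit of all probe sets (R 4.3.3, eBayes with an intensity trend), with Benjamini-Hochberg adjustment over all of them. Single genes were also tested by exact permutation of the 6 and 6 embryos. Correlations used deviations from the genotype mean with 100000 permutations within genotype, over 21 pairs since Hmgcs1 was not measured. The method was tested on simulated data. Members and lists were chosen with earlier results of these data known. Genes named outside the members were Insig2, Scap and Srebf1, some further genes that are not reported here, the 2 with the smallest unadjusted p in each pathway list, the 5 most like and 3 most opposite to Insig1, and Htt. The genes named among the cell type markers were chosen after their values were seen. Alternatives tried were a replicate block, array centring, quantile normalization, no intensity trend, array weights, removal of dim probe sets, averaging a gene's probe sets, a covariate for dim and bright probe sets, and leaving out each array. Leaving out wild type 1 and 2 together was chosen after seeing the data. Promoter sequences are RefSeq's, assembly GRCr8, matched by symbol. Plots and correlations were made in Python 3.11.15 (matplotlib 3.10.9).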

Additional observations from a re-analysis of the deposited data

How the results depend on the processing

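The count of members past the threshold was 0 (limma), with 2 of 7 at an unadjusted p under 0.05. It was 1, Insig1, with arrays centred on their medians (difference -0.32), and over the fits without 1 array it was 0 to 1, the 1 being Insig1 without wild type 3 (-0.31). The count for the wider lists was 0, and 1 under median centring and under quantile normalization (Elovl5 in both) and without wild type 1 and 2 together (Cyp51), the last chosen after seeing the data; with 1 array left out it was 0 throughout. The count of correlated pairs was 1, and 0 with arrays centred on their medians (Fdps and Dhcr7 at r = 0.95, adjusted p = 0.059), 0 without the 2 embryos farthest from the median, 0 without wild type 1 and 2, and 6 with the dim and bright difference regressed out; with 1 array left out it was 1 in each of 12 cases, with r for Fdps and Dhcr7 from 0.934 to 0.973. Differences near 0 changed sign. Sqle was -0.0268 under median centring, -0.0203 with array weights, -0.0325 with the dim and bright covariate and -0.0431 without wild type 1 and 2, Srebf2 was -0.0214 under median centring, and Lss was 0.0193 with array weights. Fdps was 0.0782 with array weights, 0.0802 with the dim and bright covariate and 0.132 without wild type 1 and 2, where Dhcr7 was 0.0023. With 1 array left out, Sqle ranged from -0.013 to 0.0241, Fdps from -0.0459 to 0.0502, Srebf2 from -0.0014 to 0.0342 and Lss from -0.073 to 0.0115. The cause of these changes was not tested, and leaving out an array shows only that a value depends on it. A replicate block changed no call (Insig1 adjusted p = 0.154, Idi1 0.247 in limma). Same-numbered embryos deviated together with r from -0.08 to 0.26, over 0.1 in 2 of 6 pairs. Of the 6 homozygous embryos 1 had its highest r with the wild-type embryo of its own number. These r come without a p-value, so whether the numbers pair the embryos was not tested.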
